A study of Bos taurus with 20 samples.

Results

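Claudins and tetraspanins are families of membrane proteins that cross the cell membrane several times, and the genes described here are CLDN4 and CLDN10, which encode claudins, and CD81, which encodes a tetraspanin. They were followed in bovine endometrium through every clone of the 18KO array that the array's gene table assigns to 1 of these symbols. These are 5 clones of the 1536 on that array, 1 of CLDN4 (18KO-08-H06), 3 of CLDN10 (18KO-10-H12, 18KO-11-C12 and 18KO-17-D07) and 1 of CD81 (18KO-11-H12), among 137 clones and 72 genes with a single symbol. The other array of the study, 18KB, carries 0 clones with these symbols.

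Claudins form the strands of the tight junction, the seal between neighbouring epithelial cells, and the set of claudins in a strand decides which ions pass between the cells. CLDN4 is known as a claudin that tightens this barrier, while CLDN10 forms pores that let selected ions through. CD81 is found in the plasma membrane of many cell types, where tetraspanins gather other membrane proteins such as integrins into patches. In the uterus the luminal and glandular epithelium, sealed by tight junctions, separates the secretions that feed the unattached conceptus from the tissue beneath.

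Endometrium was taken on day 18 from 4 pregnant Simmental heifers (Deutsches Fleckvieh; animals 316, 426, 447 and 448), inseminated with thawed semen and found to carry an intact conceptus, which was removed, and from 6 control heifers (330, 404, 427, 434, 440 and 449) on day 18 of the estrous cycle. Controls received the supernatant of centrifuged semen of the same bull, and all 10 heifers, aged 17 to 22 months, had been synchronised with the prostaglandin analogue cloprostenol. The tissue was cut from the intercaruncular lamina propria of the horn ipsilateral to ovulation, in its caudal section. RNA of each heifer, labelled with radioactive phosphorus, was hybridised to a spotted cDNA array of a subtracted library enriched for transcripts more abundant in controls (18KO) and to its counterpart enriched in pregnancy (18KB).

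The 18KO array of pregnant 316 was hybridised later than the others, with 2 of the other samples, and the authors placed its values by their ratios to these. The deposited values are spot intensities; column medians on the 18KO array ran from 1.67 in pregnant 448 to 3.90 in control 449, and arrays of a group correlated at 0.940 to 0.980 on the log2 scale. The number of arrays limits the precision of every value. Of 17 epithelial marker genes listed for the tissue check, CLDN4 and CLDN10 are the 2 with a name on the 18KO array, so the epithelial content cannot be checked by other markers, and 6 of 13 stroma markers have a name there. In tissue of mixed cells, fewer cells of a type and less RNA per cell cannot be told apart.

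The comparison asked whether transcripts of these junction and membrane proteins differ between pregnant and cyclic endometrium at the time when the conceptus must be recognised. The CLDN4 spot was brighter in all pregnant heifers than in 5 of the 6 controls, and the CD81 spot brighter than in 4 of the 6. The geometric mean of CLDN4 was 3.89 times, and that of CD81 2.55 times, the control mean. CLDN10 was low in all 4 pregnant heifers and in 3 of the 6 controls, and far brighter in controls 427, 440 and 449. With limma over the 1471 features of the array (genes, and clones without a single name), adjusted p was 0.0393 for CLDN4, 0.0283 for CD81 and 0.12 for CLDN10. Thus 0 of the 3 genes passed the threshold of adjusted p under 0.01 with a 2-fold change. In a separate limma fit of all 1536 clones, 0 of the 5 clones passed it. That threshold was passed by 4.76% of the features and by 7.49% of the clones, and 30.4% of the clones had an unadjusted p under 0.05, as did 4 of the 5 clones here.

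CLDN4, the barrier-forming claudin, had spot intensities of 26.5 in pregnant 316, 18.9 in 426, 32.6 in 447 and 27.4 in 448. In controls it was 6.53 in 330, 12.3 in 404, 1.75 in 427, 19.7 in 434, 2.62 in 440 and 11.9 in 449. The pregnant heifers lay close together, with a 1.73-fold range, while the controls spanned an 11.3-fold range and only control 434 reached the pregnant values. Mean log2 intensity was 4.69 ± 0.33 in pregnant heifers (SD, n = 4) and 2.73 ± 1.38 in controls (SD, n = 6). The log2 difference of 1.96 ± 0.58 (SE; 95% interval 0.72 to 3.20) had a limma adjusted p of 0.0393, and exact permutation, two-sided, gave p = 0.0286. The control SD was larger than that of 97.8% of all features of the array, and the pregnant SD larger than that of 44.1%, so the scatter of this gene lay mostly among the controls.

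CLDN10, the pore-forming claudin, was measured by 3 clones that ordered the heifers alike (Pearson r between clones 0.906 to 0.926 over the 10 heifers, a description of spots that share the same RNA). In clone 18KO-10-H12 the intensity was 1.16 in pregnant 316, 0.51 in 426, 1.01 in 447 and 0.94 in 448. In controls this clone gave 0.37 in 330, 0.83 in 404, 10.5 in 427, 1.40 in 434, 12.7 in 440 and 12.6 in 449. Controls 427, 440 and 449 thus stood far above all other heifers, pregnant or not, and no heifer lay between. Clone 18KO-11-C12 showed the same split, with 0.89 to 2.30 in pregnant heifers, against 6.01 in control 427, 13.7 in 440 and 9.84 in 449 and 1.08 to 2.12 in the other controls. Clone 18KO-17-D07 gave 0.43, 0.41, 0.39 and 0.24 in pregnant 316, 426, 447 and 448. Its controls had 0.64 in 330, 0.54 in 404, 10.8 in 427, 0.60 in 434, 9.03 in 440 and 3.82 in 449. It was the only clone of the 5 whose groups did not overlap, as holds for 16.4% of all clones of the array, and its pregnant values lay near the 10th percentile of all values of the array (0.37).

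Averaged over the clones on the log2 scale, CLDN10 was 1.05 in pregnant 316, 0.656 in 426, 0.766 in 447 and 0.586 in 448, against 0.635 in control 330, 0.983 in 404, 8.80 in 427, 1.04 in 434, 11.6 in 440 and 7.79 in 449. The lowest 3 controls fall inside the range of the pregnant heifers. The log2 difference of -1.93 ± 0.77 (SE; 95% interval -3.59 to -0.27) therefore rests on 3 controls; its limma adjusted p was 0.12 and its exact permutation p 0.081. The SD of log2 CLDN10 was 0.36 in pregnant heifers (n = 4) and 1.90 in controls (n = 6), and the control SD was above that of 99.5% of the features. Per clone the difference ran from -1.46 ± 0.67 (limma adjusted p = 0.153, 18KO-11-C12) to -2.52 ± 0.83 (limma adjusted p = 0.0523, 18KO-17-D07).

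CD81, the tetraspanin, gave spots of 50.2 in pregnant 316, 36.5 in 426, 50.7 in 447 and 20.9 in 448. Controls had 8.33 in 330, 13.7 in 404, 11.1 in 427, 22.1 in 434, 12.3 in 440 and 28.3 in 449. The groups overlap through pregnant 448, which lay below controls 434 and 449. Mean log2 intensity was 5.22 ± 0.60 in pregnant heifers (SD, n = 4) and 3.87 ± 0.66 in controls (SD, n = 6). The log2 difference was 1.35 ± 0.37 (SE; 95% interval 0.56 to 2.15), with a limma adjusted p of 0.0283 and an exact permutation p of 0.019. Control 330 was the lowest in CD81, and controls 427 and 440, the lowest in CLDN4, came next. The control SD of CD81 was larger than that of 72.1% of the features.

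**Figure D1:**
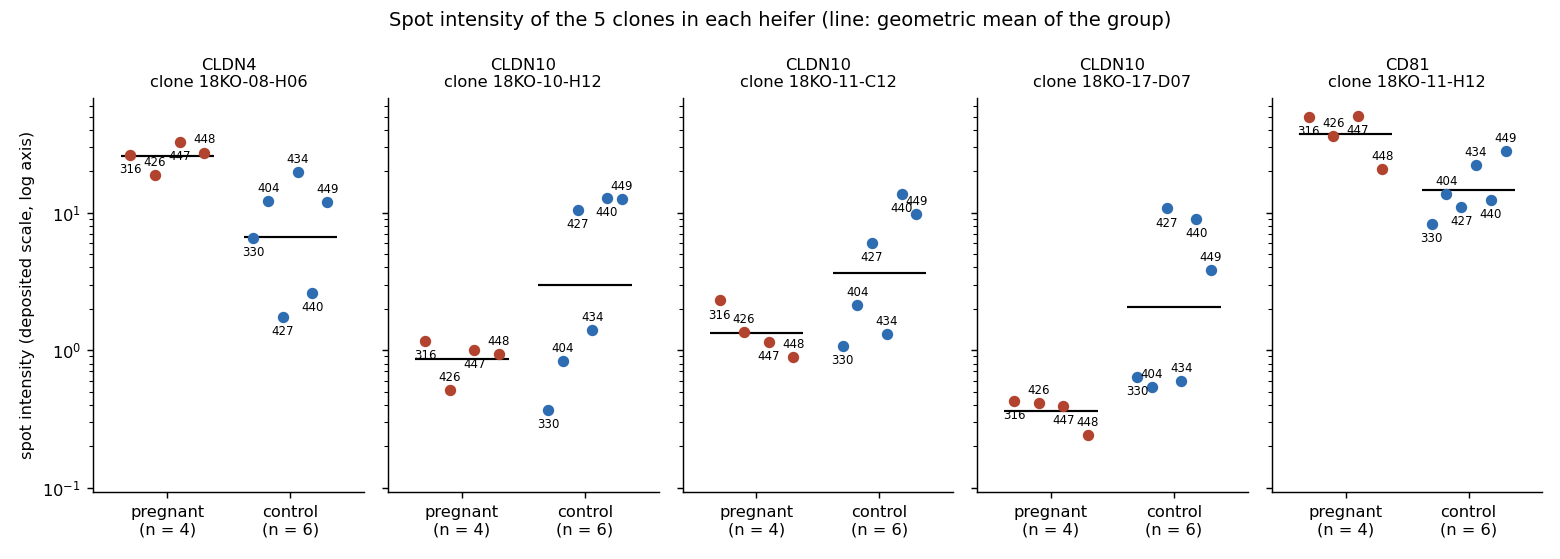
Spot intensity on a log axis for the 5 clones, with a point for each heifer labelled by its number (pregnant, n = 4; control, n = 6) and a line at the geometric mean of the group. CLDN4 is low in controls 427 and 440, the 3 CLDN10 clones are high in controls 427, 440 and 449, and CD81 overlaps between groups through pregnant 448.

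The log2 difference of a pair of genes on the same array does not move when a column is multiplied by 1 factor. It was therefore compared between heifers. Its absolute size, which depends on the spots, carries no meaning. CLDN4 minus CLDN10 was 4.66 in pregnant 316, 4.85 in 426, 5.41 in 447 and 5.55 in 448. In controls it was 3.36 in 330, 3.64 in 404, -2.33 in 427, 4.25 in 434, -2.15 in 440 and 0.62 in 449. Every pregnant heifer lay above every control, as one group lay wholly above the other for 27.6% of all pairs of the 72 named genes and 18.8% of all pairs of features of the array, with a mean of 5.12 ± 0.43 in pregnant heifers (SD, n = 4) and 1.23 ± 2.97 in controls (SD, n = 6). With each single CLDN10 clone the lowest pregnant value and the highest control value were 4.51 and 4.14 for 18KO-10-H12, 3.53 and 3.90 for 18KO-11-C12, and 5.53 and 5.04 for 18KO-17-D07, so the groups overlapped with the middle clone. Quantile normalization is not such a factor and can move this difference. After it, log2 CLDN4 and CLDN10 were 4.51 and 0.02 in pregnant 316, and 4.33 and -0.14 in control 434. The difference was then nearly the same in these heifers. No p is given, because the genes were chosen with results known.

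CD81 minus CLDN10 separated the groups as well, from 5.16 to 6.05 in pregnant heifers and from 0.09 to 4.42 in controls. Such separation held for 27.6% of all pairs of named genes and 18.8% of all pairs of features. With single CLDN10 clones its lowest pregnant and highest control values were 4.47 and 4.49 for 18KO-10-H12, where the groups overlapped, 4.45 and 4.06 for 18KO-11-C12, and 6.44 and 5.20 for 18KO-17-D07. CLDN4 minus CD81 overlapped, with a mean of -0.53 ± 0.63 in pregnant heifers (SD, n = 4) and -1.14 ± 1.10 in controls (SD, n = 6). It was -2.67 in control 427 and -2.23 in control 440, below all other heifers, against -1.25 to -0.16 in the other controls. In those 2 controls the CLDN4 spot was thus low beside CD81. Its low value beside CLDN10 also reflects the high CLDN10 of these controls, at 8.80 and 11.6.

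**Figure D2:**
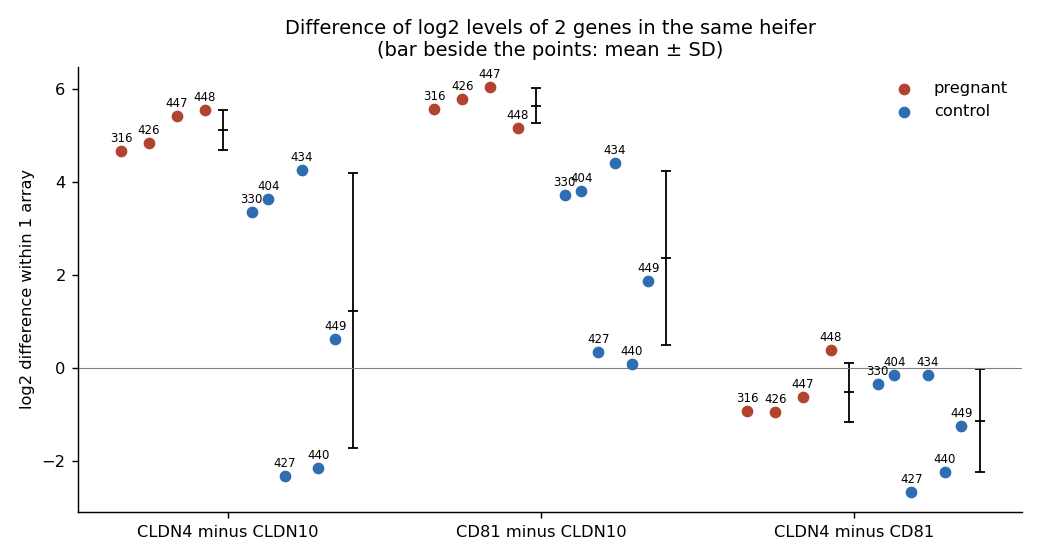
Difference of log2 levels of 2 genes within each heifer (y axis, log2 units), with pregnant heifers left of controls for each pair and bars for mean ± SD (n = 4 and n = 6). CLDN4 minus CLDN10 and CD81 minus CLDN10 lie higher in every pregnant heifer than in any control when the CLDN10 clones are averaged, and controls 427, 440 and 449 lie lowest. Groups did not overlap for 27.6% of all pairs of named genes of the array.

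Age and the later hybridisation differ between some of these heifers. Controls 427 and 440 were the oldest at 22 months, and control 449, which shares their high CLDN10, was 18 months old. In CLDN4 controls 427 and 440 were the lowest of all heifers, at 1.75 and 2.62. No pregnant heifer was 22 months old, so age and status cannot be told apart there. The ages of 19 and 20 months, which both groups hold, leave out controls 427, 440 and 449, so they do not bear on the high CLDN10 of these controls. Among the heifers of 20 months, CLDN4 was 26.5 in pregnant 316 and 27.4 in pregnant 448, against 6.53 in control 330 and 12.3 in control 404. At the same age CD81 was 50.2 and 20.9 in these pregnant heifers, against 8.33 and 13.7 in these controls. At 19 months pregnant 447 had 32.6 for CLDN4 and 50.7 for CD81, against 19.7 and 22.1 in control 434. At each of these ages both spots were brighter in the pregnant heifers. These values are of the few heifers named, and controls 427 and 440, the lowest in CLDN4, are not among them. They do not separate age from status. Between the ages CD81 overlapped, with 20.9 in pregnant 448 and 22.1 in control 434. With age as a covariate the log2 differences were 1.42 for CLDN4, 1.10 for CD81 and -1.53 for CLDN10 (limma adjusted p = 0.079, 0.0542 and 0.235). Without pregnant 316 they were 1.95, 1.21 and -2.09 (limma adjusted p = 0.0882, 0.0913 and 0.174).

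Scaling between columns bears on the test of CD81 and CLDN4. The median log2 difference of all features was -0.02 with the values as deposited and 0.31 after every column was set to the same median. As deposited, CD81 stood 1.37 and CLDN4 1.98 above the median of all features. Equal column medians shift every log2 difference by the same amount, so these distances stay the same. With equal column medians, CD81 differed by 1.68 ± 0.26 (limma adjusted p = 0.000598) and CLDN4 by 2.29 ± 0.50 (limma adjusted p = 0.00513), both past the threshold, and neither gene overlapped between groups, as held for 20.2% of the features under that scaling (13.9% as deposited). CD81 also passed after quantile normalization (1.50 ± 0.29, limma adjusted p = 0.00284), where CLDN4 did not (2.09 ± 0.52, limma adjusted p = 0.0123). With 1 factor per heifer from both arrays neither passed (CD81 1.12, CLDN4 1.73). CLDN10 passed under none of these scalings (-2.16 to -1.60, limma adjusted p = 0.0574 to 0.114). The scaling also moved the direction of calls over the whole array: 13 of 70 called features were higher in pregnant heifers as deposited (18.6%), 80 of 142 with equal medians (56.3%), 52 of 122 after quantile normalization (42.6%) and 14 of 168 with 1 factor per heifer (8.33%).

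**Figure D3:**
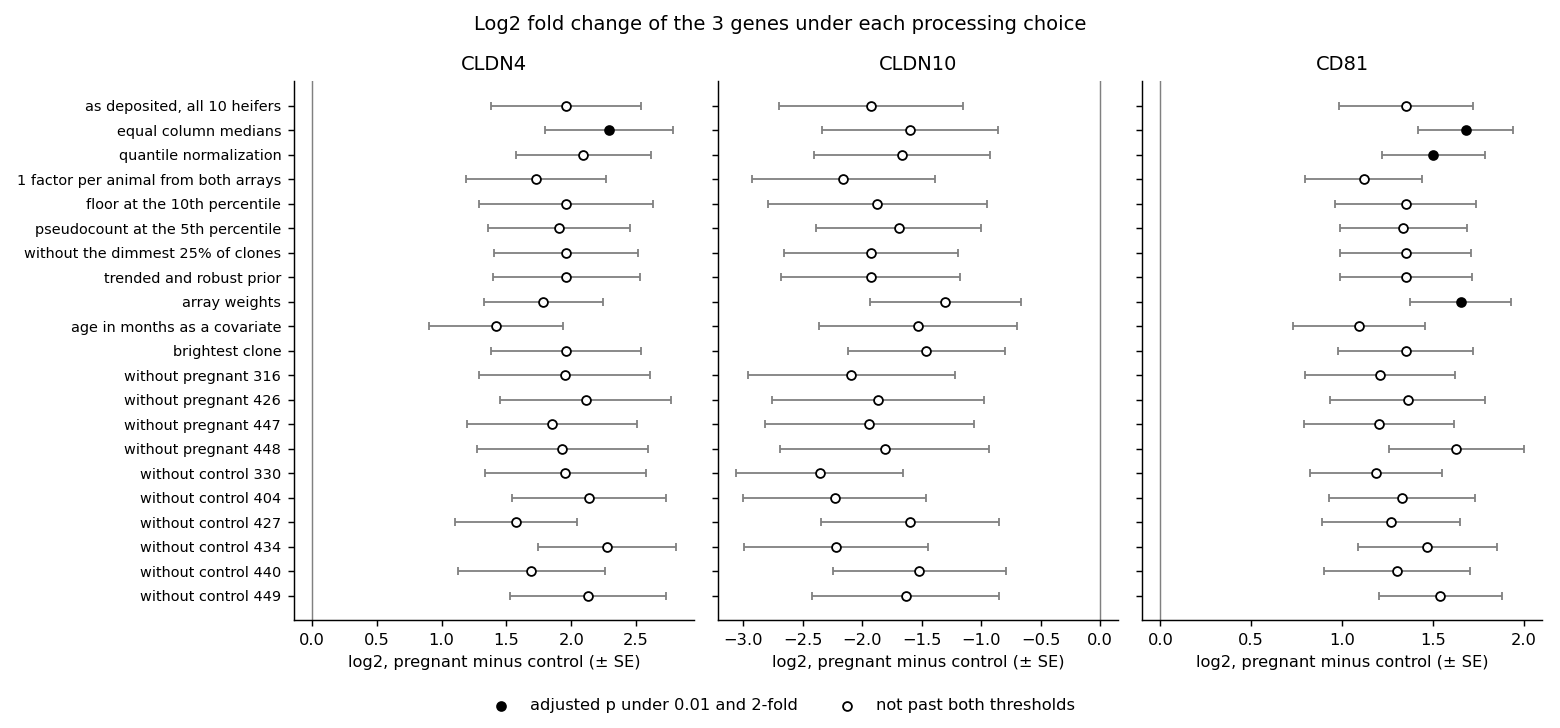
Log2 difference, pregnant minus control, with its SE (x axis) for CLDN4, CLDN10 and CD81 under each processing choice that can change the values or their SE, and without each heifer in turn (rows; the adjustment over named genes alone and the 0.05 threshold, which leave both as they are, are not drawn); filled points passed adjusted p under 0.01 and a 2-fold change. CLDN4 and CD81 lie right of 0 and CLDN10 left of 0 in every row drawn, and filled points occur for CLDN4 with equal column medians and for CD81 with equal medians, quantile normalization and array weights.

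Naming on this array was tied to the outcome, since the authors sequenced chiefly clones they had found to differ in these samples. Adjusted over the 72 named genes alone, of which 76.4% were called, CLDN4 and CD81 passed (limma adjusted p = 0.00606 and 0.00404) and CLDN10 did not (0.0308). Over all features, 33.3% of the named genes were called. At an adjusted p under 0.05 with a 2-fold change, CLDN4 and CD81 were 2 of the 160 features called, or 10.9% of all, and 2.72% of all features were called as higher in pregnant heifers.

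Across the 6 controls CLDN4 and CD81 correlated with Pearson r = 0.615 (exact permutation p = 0.186, 0.317 after Benjamini-Hochberg adjustment over 3 pairs) and Spearman rho = 0.657 (exact permutation p = 0.175, adjusted 0.446). Without controls 427 and 440, farthest from the median of CLDN4, r was 0.752 over the other 4. The relation was not resolved with 6 heifers. For the pairs with CLDN10 no correlation is given, since the control values of CLDN10 fall into separate clusters of 3 heifers each; within them, the cluster of 427, 440 and 449 had CLDN4 at 1.75, 2.62 and 11.9.

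Of 69 other named genes on the array, those whose log2 level followed CLDN4 best over the 10 heifers were EPAS1, a hypoxia-inducible transcription factor (Pearson r = 0.931, and 0.971 over the 6 controls), TXNIP, an inhibitor of thioredoxin (0.902 and 0.915), and PENK, the enkephalin precursor (0.895 and 0.911). These r describe heifers that also differ by group. EPAS1 was 1.49 in control 427 and 2.46 in 440, against 2.79 to 6.06 in the other controls and 7.29 or more in pregnant heifers. PENK was 2.04 in control 427 and 1.89 in 440, against 6.09 to 8.64 in the other controls and 29.9 to 59.9 in pregnant heifers. Since these genes were chosen for following CLDN4, their low values in controls 427 and 440 are part of that choice.

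The genes most like CLDN10 were FN1, the matrix protein fibronectin (r = 0.849 over the 10 heifers), CKAP4, which anchors the endoplasmic reticulum to the cytoskeleton (0.828), and SPARC, a matrix glycoprotein measured by 5 clones (0.823). These r describe heifers of which controls 427, 440 and 449 stand apart in CLDN10, and the genes were chosen by them. SPARC was 20.5 in control 427, 19.7 in 440 and 24.1 in 449, against 10.8 to 12.6 in the other controls and 4.10 to 7.89 in pregnant heifers. The other controls, which overlapped with the pregnant heifers in CLDN10, lay above them in SPARC. CKAP4 was 3.31 in control 427, 8.64 in 440 and 12.4 in 449, against 2.24 to 2.93 in the other controls and 0.94 to 1.15 in pregnant heifers, so control 427 lay near the other controls in this gene. FN1 was 9.20 in control 427, 10.0 in 440 and 9.55 in 449, and control 434 was next at 7.30. Of these genes SPARC passed the threshold (-1.53 ± 0.31, limma adjusted p = 0.00525), while FN1 (-1.35, limma adjusted p = 0.0259) and CKAP4 (-2.00, limma adjusted p = 0.0109) did not.

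CD81 was most like NR2F2, a transcription factor of stromal cells (r = 0.855, and 0.603 over the controls), TXNIP (0.840 and 0.513) and EPAS1 (0.837 and 0.708). NR2F2 was higher in pregnant heifers (1.52 ± 0.33, limma adjusted p = 0.00962) and, as in CD81, pregnant 448 was the lowest of its group (1.09, against 1.76 to 2.88) and control 449 the highest of the controls (1.26, against 0.47 to 0.71). The 18KO columns of these 2 heifers have the lowest and the highest median of the array. Pregnant 448 stayed lowest of its group in CD81 with equal column medians (log2 level 4.90) and after quantile normalization (4.77). Control 449 lay below control 434 under both, at 4.11 against 4.26 with equal medians and 4.26 against 4.51 after quantile normalization. With 1 factor per heifer from both arrays control 449 was again the highest control, at 4.71 against 4.53 in control 434.

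**Figure D4:**
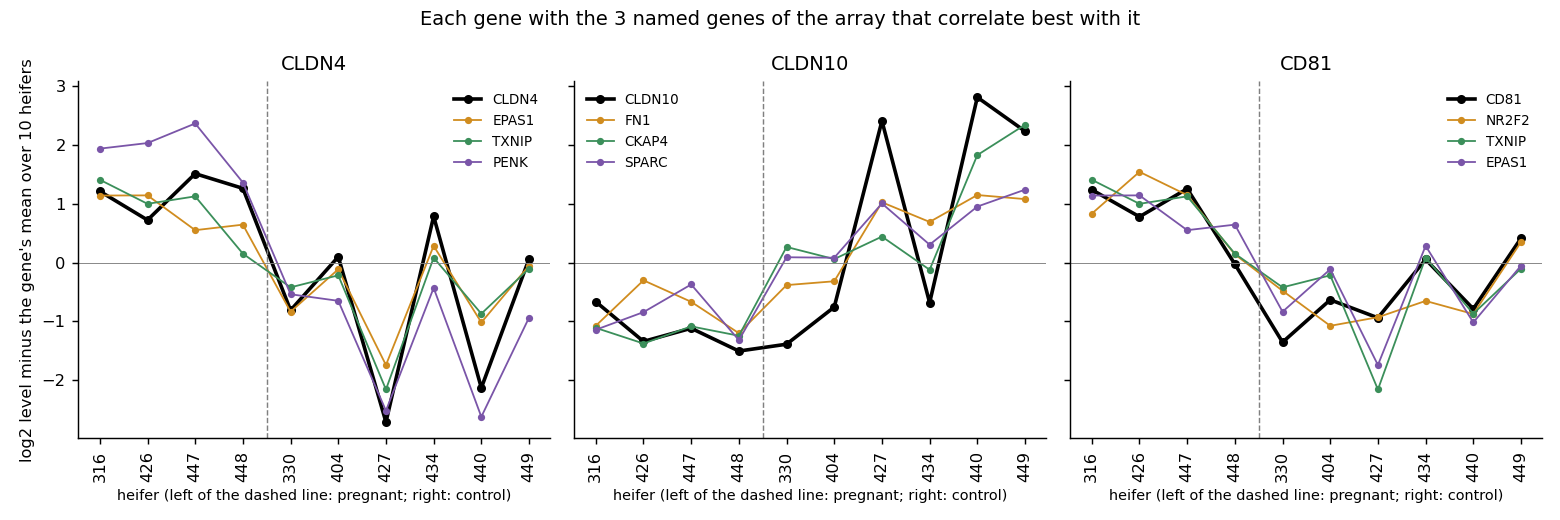
Log2 level minus the gene's mean over the 10 heifers (y axis) for CLDN4, CLDN10 and CD81 (black) and the 3 named genes most correlated with each; the x axis gives the heifers, pregnant left of the dashed line, and lines join points of a gene with no order implied. CLDN4, EPAS1, TXNIP and PENK are all lowest in control 427 or 440, and CLDN10 is highest in controls 427, 440 and 449.

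Markers of other cell types moved between the same groups. The 6 named stroma markers of the 18KO array summed to 69.5 to 275 in pregnant heifers and 328 to 1086 in controls, with 3 lower (COL1A1, COL3A1 and COL6A3), 1 higher (NR2F2) and a median log2 difference of -1.73, against -1.34 over the 72 named genes of the array and -0.02 over all its features. The 4 of 6 that passed compare with 33.3% of the named genes and 4.76% of the features. Both named smooth muscle markers, ACTA2 and MYLK, were lower (-1.41 ± 0.28 and -1.58 ± 0.34, limma adjusted p = 0.00508 and 0.00856), with sums of 4.81 to 9.33 in pregnant heifers and 14.7 to 33.3 in controls. On the 18KB array CD74, the 1 named leukocyte marker of 14, was 13.1 to 19.7 in pregnant heifers and 4.86 to 8.12 in controls. Its log2 difference was 1.28, against a median of 0.38 over all features of that array. Of those features 15.6% were called as higher in pregnant heifers. Column medians of that array were also higher in pregnant heifers, at 2.495 to 3.18 against 1.385 to 1.9 in controls. Of the single values of all named marker clones, 0 on the 18KO array and 1 on the 18KB array lay at or below 0.01. The part of these shifts in CLDN4, CLDN10 and CD81 was not tested.

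Trophoblast, the outer epithelium of the conceptus, also makes claudins, and 3 of 15 trophoblast markers have a name on the 18KB array (IFNT2, TKDP1 and TKDP4). Their summed level was 1.44 to 41.7 in pregnant heifers and 0.955 to 1.79 in controls. TKDP1, a trophoblast Kunitz domain protein, had a level of 0.341 in pregnant 316. It was 2.85 in pregnant 426, 1.43 in pregnant 447 and 16.1 in pregnant 448, and controls ran from 0.187 to 0.401. Pregnant 316 was thus within the control range of TKDP1, and pregnant 448 far above it. The part of trophoblast RNA in CLDN4, CLDN10 and CD81 was not tested.

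Among the other genes of these pathways little has a name here. Of 38 tight junction genes listed, the 2 named on the 18KO array are CLDN4 and CLDN10, and of 27 tetraspanins and CD81 partners the 1 is CD81. Of 32 other adhesion genes PLET1, a surface protein of epithelia, is named on the 18KB array. PLET1 was 15.6 in pregnant 316, 14.8 in 426, 1.72 in 447 and 21.2 in 448, whereas controls ran from 0.02 to 0.28. It was higher in pregnant heifers (limma adjusted p = 0.000127), as were 15.6% of the features of that array. As deposited, pregnant 447, lowest in PLET1, was the highest in CLDN4 (32.6, against 27.4 in pregnant 448). It was also the highest in CD81, at 50.7 against 50.2 in pregnant 316. Pregnant 448 was the highest in CLDN4 with equal column medians, after quantile normalization and with 1 factor per heifer. In CD81 pregnant 447 stayed highest with equal medians and after quantile normalization, but pregnant 316 was highest with 1 factor per heifer.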

How the data were processed

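Per the labels' protocols, endometrial RNA of 10 heifers received a radioactive label and was hybridised to 2 cDNA arrays. The deposited values are spot intensity on a linear scale; the sources used here do not say how the authors corrected background or scaled columns. A floor of 0.01 was applied (0 values of the 5 clones lay at or below it) before log2. Gene names are those of the platform's table, an old annotation; the 3 genes matched ARS-UCD2.0 in RefSeq by identifier. Coordinates are left out because no source names a build for the clones.

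Log2 levels of clones sharing 1 symbol were averaged. These genes and all clones without a single symbol (1471 features) were fitted together in limma 3.58.1 (lmFit, eBayes; statmod 1.5.0, R 4.3.3), pregnant against control, with Benjamini-Hochberg adjustment over all of them; a call needed adjusted p under 0.01 and a fold of 2. Single clones were fitted apart in the same way, with adjustment over all 1536 clones. Exact permutation tests of single values were two-sided and used all 210 divisions of the heifers (smallest p 0.00476). The script was tested on simulated data. Figures used matplotlib 3.10.9 (Python 3.11.15).

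The genes, gene lists and tests were chosen with earlier results of these data known. Genes named are the 3 members, the 3 named genes most correlated with each, and genes of the lists. Alternatives were other scalings, floors, filters, priors, weights, age, adjustments, thresholds, the brightest clone and leaving out each heifer. Of the 3 control correlations planned, those with CLDN10 are not given because its values cluster. The tables held 0 other columns of sample values. Replicates are separate animals.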

Additional observations from a re-analysis of the deposited data

Results flagged for a closer look

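In clone 18KO-17-D07 of CLDN10, pregnant 448 lay apart from the rest of its group, at 0.24 against 0.39 to 0.43, with a gap of 0.833 of the group's log2 range, past Dixon's 95% limit for 4 samples. All these values are near the 10th percentile of the array (0.37), and the column of pregnant 448 has the lowest median (1.67). FBLN1, a matrix protein of the stroma list, was 146 in control 449 where the controls began at 43.7 (gap 0.828 of the log2 range, past the limit for 6 samples). These are 2 of 50 groups examined. Chance flags about 5% of separate groups, but these 50 share values, since CLDN4 and CD81 entered both as gene and as single clone.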

How the results depend on the processing

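CLDN4 and CD81 stayed above 0 and CLDN10 below 0 under all 12 alternatives and without each heifer in turn. CLDN4 became called with equal column medians (2.29), and CD81 with equal column medians (1.68), after quantile normalization (1.50) and with array weights (1.66). Both became called at their unchanged values of 1.96 and 1.35 when adjusted over named genes alone or at an adjusted p under 0.05. The other 9 alternatives for CLDN4, 7 for CD81 and all 12 for CLDN10 left the call as it was. Without each heifer in turn, the log2 difference was 1.58 to 2.27 for CLDN4 (limma adjusted p = 0.0153 to 0.0995), -2.36 to -1.52 for CLDN10 (0.0443 to 0.231) and 1.19 to 1.63 for CD81 (0.0125 to 0.0913). Of the 5 clones 2 were called with equal medians, over named clones alone or at 0.05, 1 after quantile normalization or with array weights, and 0 to 1 without each heifer in turn, with 1 without control 449. Of the features of the array 142 were called with equal medians, 122 after quantile normalization, 168 with 1 factor per heifer, 120 with array weights and 160 at 0.05, against 70. Without each heifer in turn it was 33 to 75, with 33 without pregnant 448 and 43 without pregnant 426. The cause was not tested. No paired analysis was possible because pregnant and control heifers share no number and these genes are named on 1 array only. The few arrays, and for CLDN10 intensities near the bottom of the scale, limit precision.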
